A study of Mus musculus with 6 samples.

Results

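The genes described here make, degrade, carry and respond to retinoic acid, the active form of vitamin A. They were chosen by name for these roles and number 10 of the 38553 genes with a value in craniofacial tissue of E12.5 mouse embryos. *Rdh10*, *Aldh1a1*, *Aldh1a2* and *Aldh1a3* encode enzymes of synthesis, *Cyp26a1*, *Cyp26b1* and *Cyp26c1* encode enzymes of breakdown, *Crabp1* and *Crabp2* encode binding proteins, and *Rarb* encodes a receptor. RNA-Seq was performed on 3 control embryos (Rbfox2 flox/flox, without Cre) and 3 *Rbfox2* mutant embryos (Pax3Cre/+:Rbfox2 flox/flox), so both groups carry the floxed *Rbfox2* alleles. Pax3Cre is a knock-in at *Pax3*, and the mutants therefore have 1 intact *Pax3* allele as well as Cre. It is active in neural crest cells and also in the dorsal neural tube and in derivatives of the paraxial mesoderm. Dissected craniofacial tissue also holds cells that Cre does not reach, such as surface epithelium and much of the eye.

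Retinol from the blood is first oxidised to retinaldehyde, mainly by Rdh10, and then to retinoic acid by the 3 Aldh1a enzymes. Retinoic acid is bound in the cytoplasm by the Crabp proteins, acts in the nucleus through retinoic acid receptors paired with retinoid X receptors, and is removed by the Cyp26 enzymes. In the embryonic face, sources and sinks lie in different places around the eye, the nasal pits and the oral epithelium, and both too much and too little retinoic acid are known to cause facial clefts.

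The receptor pairs bind direct repeats of a 6-base half-site, and *Rarb* and *Cyp26a1* are the classical genes with such an element at their promoter. The RefSeq promoter table for GRCm38.p6 gives windows from 250 bases before to 50 bases after each transcription start. It held 8 windows for 7 of the 10 genes and none for *Rdh10*, *Aldh1a3* and *Crabp2*. A search on both strands used the half-sites AGGTCA or else AGTTCA, together with GGGTCA or else GGTTCA, in any pairing. With a spacer of 5 bases, 1 repeat was found in the *Rarb* window and 1 in the *Cyp26a1* window. They are shown because they are the known retinoic acid response elements of these genes, with the half-sites in capitals and the spacer in lower case.
Rarb, chr14:16575513-16575529, on the strand of the gene: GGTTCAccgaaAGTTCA
Cyp26a1, chr19:37697776-37697792, on the strand opposite to the gene: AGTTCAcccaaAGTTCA
The *Rarb* repeat lies 37 to 53 bases before the start in its window and the *Cyp26a1* repeat 16 to 32 bases before the start in its own. The *Rarb* start lies inside the span of the gene. Such a repeat was present in 32 of 32851 promoter windows (0.0974%). Spacers of 2 bases and 1 base were found in 0.268% and 0.222% of windows. The other 6 windows, of 5 genes, held no repeat with any of these spacers. A match describes letters in the window and not binding.

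The deposited values are FPKM, fragment counts divided by gene length and by the library's mapped fragments, which allow levels of different genes to be set side by side. They summed to between 528123 and 590174 per sample, and the read count behind a value is unknown. *Rbfox2* FPKM was 58.4, 65.0 and 61.3 in control replicates 1, 2 and 3 and 38.1, 36.3 and 34.3 in the mutants, so each mutant library was below each control library. *Pax3* was 8.83, 11.9 and 11.1 in controls and 8.62, 7.59 and 8.36 in mutants, again without overlap. Replicate 1 of either group was unlike the remaining libraries. On the first principal component, with 54.7% of the variance, they lay at -19.1 and -17.0, while the other 4 libraries lay between 7.55 and 11.01. Differences between samples with the same number are therefore given where the first replicates went another way. All 10 markers of cranial mesenchyme passed the filter on low values that is described next, and their summed FPKM was 450 to 504 in controls and 407 to 497 in mutants. The tissue also held lens, neuronal, muscle and blood transcripts. The 7 markers of pigment epithelium summed to an FPKM of 16.4 to 22.6 in controls and 16.6 to 20.3 in mutants. Of these 7, only *Rpe65* was at 0 in all 6 libraries.

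In none of the 10 genes did the difference between the groups pass the test. The lowest estimates were those of *Aldh1a2* and *Aldh1a3*, with mutant means of 79.9% and 80.7% of the control means, and the highest was that of the weakly expressed *Cyp26c1*, at 170%. The test was run with limma on every gene whose FPKM exceeded 5 throughout at least 1 of the groups, and it used log2(FPKM + 1), the scale of all log2 fold changes here, which understates changes of low genes. Of the 10 genes, 8 passed this filter and *Cyp26a1* and *Cyp26c1* did not. Of the 8, 0 had an unadjusted p under 0.05, against 167 of 10061 genes (1.66%). Over all genes 0 (0%) passed an adjusted p of 0.05 in limma, the smallest adjusted p being 0.138. The median log2 fold change of the 8 was -0.036 and that of all genes tested was 0.0057. The median absolute log2 fold changes were 0.076 and 0.054. In 0 of the 10 genes were the values of the groups free of overlap, compared with 503 (5%) of the genes tested. For single genes an exact two-sided permutation test of 3 samples against 3 cannot go below p = 0.10. In dissected tissue, fewer cells of a type and less RNA per cell cannot be told apart.

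The levels of the 10 genes fell into 4 bands by FPKM. *Crabp1* and *Crabp2* were highest, at control means of 202 and 196, and their ranges over the 6 libraries overlapped. *Aldh1a2* followed at 31.5, above and separate from the band of *Aldh1a1* (17.9), *Cyp26b1* (15.5), *Rarb* (13.9), *Aldh1a3* (11.6) and *Rdh10* (9.80), in which each gene overlapped its neighbours in this order. *Cyp26a1* (2.69) and *Cyp26c1* (0.796) were lowest and overlapped each other.

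**Figure D1:**
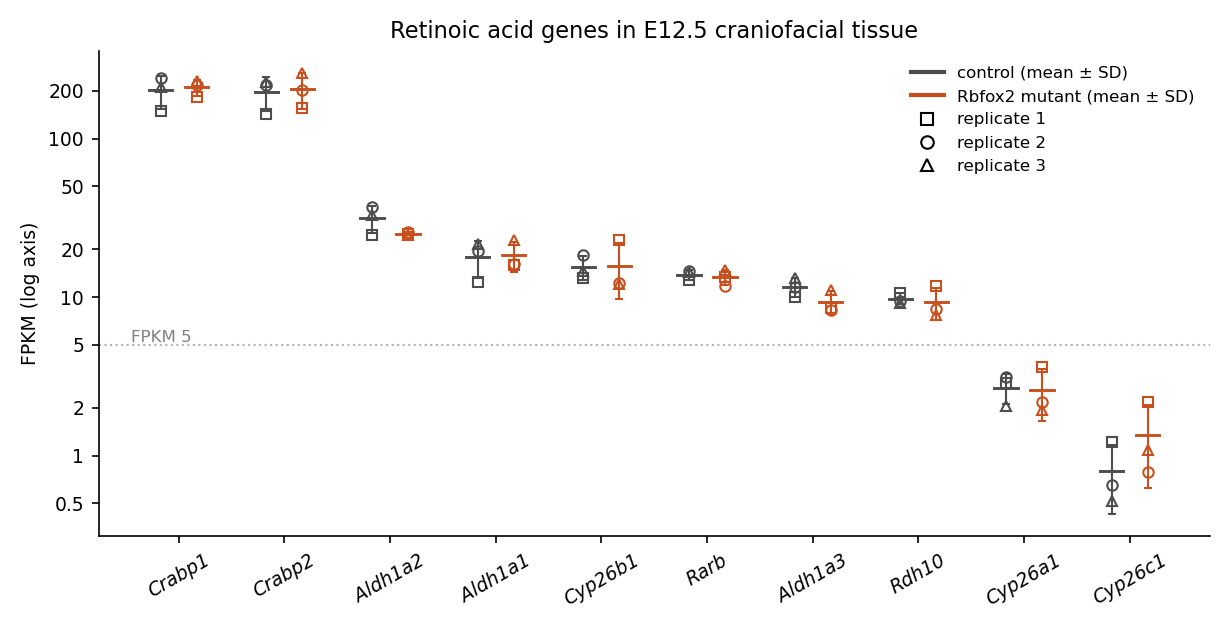
FPKM of the 10 genes in each of the 3 control and 3 Rbfox2 mutant libraries, on a log axis, with group means and SD bars and a dotted line at an FPKM of 5. The Crabp genes lie between 143 and 260, the enzymes of synthesis and Rarb between 7.75 and 36.9, and Cyp26a1 and Cyp26c1 at or below 3.65. For each gene the 2 groups overlap.

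*Rdh10* (ENSMUSG00000025921, chr1:16105774-16133734, plus strand, GRCm38) encodes the retinol dehydrogenase that sets the supply of retinaldehyde in the embryo. Its FPKM was 10.7, 9.52 and 9.17 in control replicates 1, 2 and 3 and 11.8, 8.47 and 7.75 in mutant replicates 1, 2 and 3. The first replicates were highest in both groups. Mutant replicate 1 was above every control, and mutant replicates 2 and 3 were below every control. The means were 9.80 ± 0.802 (SD, n = 3) and 9.33 ± 2.13 (SD, n = 3), a log2 fold change of -0.081 with a 95% interval of -0.43 to 0.27 (limma, adjusted p = 1.0).

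*Aldh1a2* (ENSMUSG00000013584, chr9:71215789-71296243, plus strand) encodes the retinaldehyde dehydrogenase with the widest role in embryonic mesenchyme. Its FPKM was 24.8, 36.9 and 33.0 in controls and 25.2, 25.7 and 24.8 in mutants. Control replicates 2 and 3 were above all 3 mutants, and control replicate 1 lay within the narrow range of the mutants. The means were 31.5 ± 6.17 (SD, n = 3) and 25.2 ± 0.473 (SD, n = 3), so that the mutant mean was 79.9% of the control mean. The fitted log2 fold change was -0.29 with a 95% interval of -0.62 to 0.036 (limma, unadjusted p = 0.0734, adjusted p = 1.0; exact permutation p = 0.30). By number, the mutant differed from the control by 0.022, -0.50 and -0.40 on the log2 scale. With the replicate number as a block, limma gave an unadjusted p of 0.0350 (adjusted p = 0.812) for the same fold change, where 6% of all genes tested had an unadjusted p under 0.05. In replicates 2 and 3 alone the log2 fold change was -0.45 ± 0.077 (SE) with an unadjusted limma p of 0.00091 and an adjusted p of 0.283, and 11% of genes were under 0.05 there. Without control replicate 1 the value was -0.45 and without control replicate 2 it was -0.18, so its size depended on which of these controls was present. Skeletal muscle markers were also highest in control replicates 2 and 3, at summed FPKM values of 165, 433 and 269 in the control libraries and 158, 242 and 192 in the mutant ones. Of the 7 muscle markers tested, 7 had a lower estimate in mutants and 0 had an unadjusted limma p under 0.05. With the replicate block 5 were under it, against 6% of all genes tested. Surface epithelium markers summed to 149, 244 and 214 in controls and to 155, 194 and 156 in mutants. The part of these tissues in the *Aldh1a2* values was not tested. The paper names *Aldh1a2* among genes downregulated in its *Rbfox2* mutants. It used other software, and the cut-offs it states, for transcripts, rest on unadjusted p-values and fold change. Its call and the limma result here therefore differ in method and threshold.

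*Aldh1a3* (ENSMUSG00000015134, chr7:66390890-66427517, minus strand) encodes the family member known for its expression in the nasal placode, lens and ventral retina. Its FPKM was 9.98, 11.6 and 13.3 in controls and 8.59, 8.35 and 11.2 in mutants. Mutant replicates 1 and 2 were below every control, and mutant replicate 3 fell between control replicates 1 and 2. In each of the 3 numbers the mutant was lower, by log2 differences of -0.19, -0.43 and -0.23. The means were 11.6 ± 1.64 (SD, n = 3) and 9.37 ± 1.55 (SD, n = 3), which is 80.7%. On the log2 scale, the fold change was -0.28 with a 95% interval of -0.61 to 0.045 (limma, unadjusted p = 0.0805, adjusted p = 1.0; exact permutation p = 0.20). The replicate block gave an unadjusted limma p of 0.0106 and an adjusted p of 0.768. Left-out samples moved the value between -0.40, without mutant replicate 3, and -0.19, without control replicate 3. With the mean of the Y-linked genes as a covariate the value was -0.042 (limma, unadjusted p = 0.807). That covariate also moved the median absolute log2 fold change of all genes tested from 0.054 to 0.106, and the sample labels do not give sex. Markers of 2 tissues that can express the gene varied widely between libraries. The summed FPKM of 8 lens markers was 124 to 245 in controls and 98.3 to 298 in mutants, and that of 10 surface epithelium markers is given above. Of the 9 surface epithelium markers tested, 7 had a lower estimate in mutants and 0 had an unadjusted limma p under 0.05. With the replicate block 2 were under it, against 6% of all genes tested. Their part in the *Aldh1a3* values was not tested.

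*Aldh1a1* (ENSMUSG00000053279, chr19:20492715-20643465, plus strand) encodes the enzyme known from the dorsal retina and lens. Its FPKM was 12.53, 19.5 and 21.7 in controls and 15.99, 16.3 and 22.8 in mutants. The lowest and the highest value thus came from different groups, and mutant replicates 1 and 2 fell between control replicates 1 and 2. The resulting log2 fold change was 0.050 with a 95% interval of -0.46 to 0.56 (limma, adjusted p = 1.0), and it turned to -0.090 in replicates 2 and 3 alone. *Aldh1a7*, a near copy on the same chromosome 49487 bases away, had an FPKM of 14.7% to 16.4% of that of *Aldh1a1* in every library, and how reads shared by the pair were counted is not described.

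**Figure D2:**
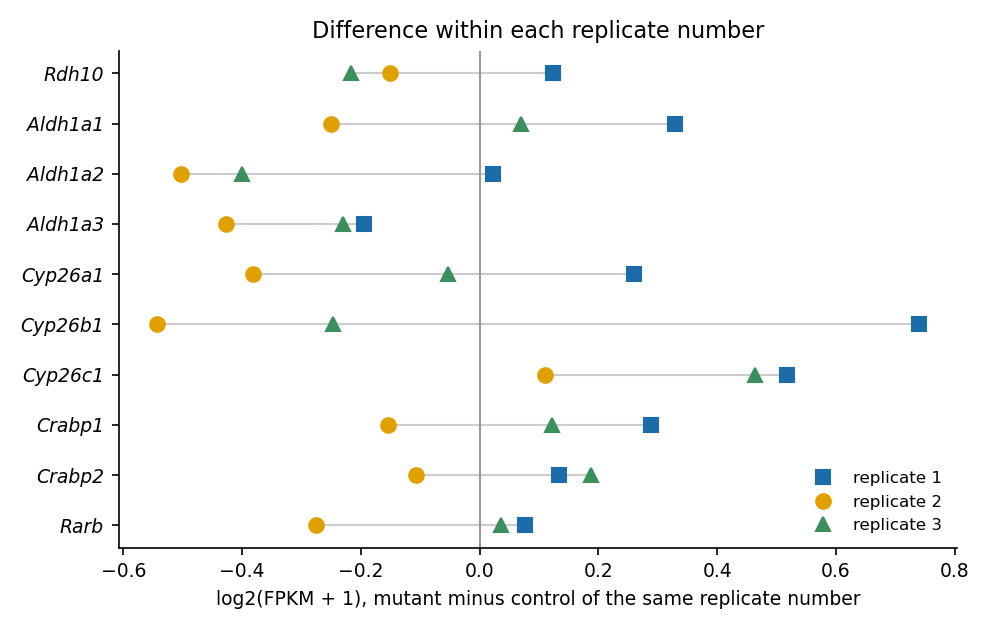
Log2(FPKM + 1) difference between the Rbfox2 mutant and the control with the same replicate number, for each of the 10 genes. Aldh1a2 is at 0.022 in replicate 1 and at -0.50 and -0.40 in replicates 2 and 3, Cyp26b1 runs from 0.74 to -0.54, and Aldh1a3 is below 0 in all 3.

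*Cyp26b1* (ENSMUSG00000063415, chr6:84571414-84593908, minus strand) encodes the retinoic acid hydroxylase of facial and limb mesenchyme, and it made up 76.4% to 85.1% of the summed Cyp26 FPKM. Its own FPKM was 13.3, 18.4 and 14.6 in controls and 22.8, 12.3 and 12.2 in mutants. Mutant replicate 1 was the highest library of all, and mutant replicates 2 and 3 were below every control. The means were 15.5 ± 2.68 (SD, n = 3) and 15.8 ± 6.11 (SD, n = 3). The log2 fold change was -0.017 with a 95% interval of -0.59 to 0.56 (limma, adjusted p = 1.0), and was 0.0069 after quantile normalization. By number the differences were 0.74, -0.54 and -0.25. In replicates 2 and 3 alone the log2 fold change was -0.40 ± 0.11 (SE), with an unadjusted limma p of 0.0118 and an adjusted p of 0.400. For the meningeal markers, summed FPKM ranged from 60.5 to 117 across the control libraries and from 75.3 to 110 across the mutant ones. The part of the meninges in the *Cyp26b1* values was not tested.

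*Cyp26a1* (ENSMUSG00000024987, chr19:37697798-37701536, plus strand), the most retinoic acid-inducible of the 3 genes, stood at 2.88, 3.13 and 2.05 FPKM in the control libraries and at 3.65, 2.17 and 1.94 FPKM in the mutant ones. The groups overlapped and the highest value was mutant replicate 1. In a limma fit without a filter the log2 fold change was -0.059 with a 95% interval of -0.59 to 0.47. *Cyp26c1* (ENSMUSG00000062432, chr19:37685581-37693398, plus strand) lies 4399 bases before it. Its FPKM was 1.21, 0.655 and 0.518 in controls and 2.17, 0.786 and 1.09 in mutants. The mutant was higher in each of the 3 numbers, by log2 differences of 0.52, 0.11 and 0.46, but mutant replicates 2 and 3 lay below control replicate 1. The mutant mean was 170% of the control mean at these low levels, and mutant replicate 1 contributed most to it. In the fit without a filter the log2 fold change was 0.36 with a 95% interval of -0.24 to 0.97 (limma, unadjusted p = 0.192, adjusted p = 1.0), and the replicate block gave an unadjusted limma p of 0.0291 and an adjusted p of 0.885. Without mutant replicate 1 the log2 fold change was 0.13, and the highest value with a sample left out was 0.54, without mutant replicate 2.

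Synthesis and breakdown were also set against each other as sums of FPKM. The 3 Aldh1a genes summed to 47.3, 68.0 and 67.9 in controls and to 49.8, 50.3 and 58.7 in mutants. The 3 Cyp26 genes summed to 17.4, 22.2 and 17.2 in controls and to 28.7, 15.3 and 15.2 in mutants. The ratio of the first sum to the second was 2.72, 3.06 and 3.95 in controls and 1.74, 3.29 and 3.86 in mutants. Mutant replicate 1 had the lowest ratio and the other mutants lay within the control range.

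*Crabp1* (ENSMUSG00000032291, chr9:54764748-54773110, plus strand) encodes the cytoplasmic binding protein known as a marker of migrating neural crest and frontonasal mesenchyme. Its FPKM was 149.6, 243 and 212 in controls and 183, 218 and 231 in mutants. The first replicate was lowest in both groups, and all 3 mutants lay within the control range. The fitted log2 fold change was 0.086 with a 95% interval of -0.36 to 0.53 (limma, adjusted p = 1.0). *Crabp2* (ENSMUSG00000004885, chr3:87948666-87953376, plus strand), which delivers retinoic acid to the receptors, stood at 143, 218 and 228 in controls and at 157, 203 and 260 in mutants. The first replicate was again lowest in both groups and the highest library was mutant replicate 3. On the log2 scale, the fold change was 0.071 with a 95% interval of -0.49 to 0.63 (limma, adjusted p = 1.0).

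*Rarb* (ENSMUSG00000017491, chr14:16430839-16819156, minus strand) encodes the receptor whose own transcription is induced through the repeat shown above. Of 7 *Rarb* transcripts, 3 held the end of that promoter window. The FPKM covers the whole gene and is not a measure of that promoter alone. Its FPKM was 12.8, 14.5 and 14.4 in controls and 13.5, 11.8 and 14.8 in mutants. Both the lowest and the highest value were mutants, and all 6 libraries lay close together. The means were 13.9 ± 0.998 (SD, n = 3) and 13.4 ± 1.49 (SD, n = 3). The log2 fold change of -0.055 had the narrowest 95% interval of the 10 genes, -0.30 to 0.19 (limma, adjusted p = 1.0). *Rarb* overlaps *Top2b* on the opposite strand, whose FPKM reached 112, and whether strand was used in counting is not described.

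**Figure D3:**
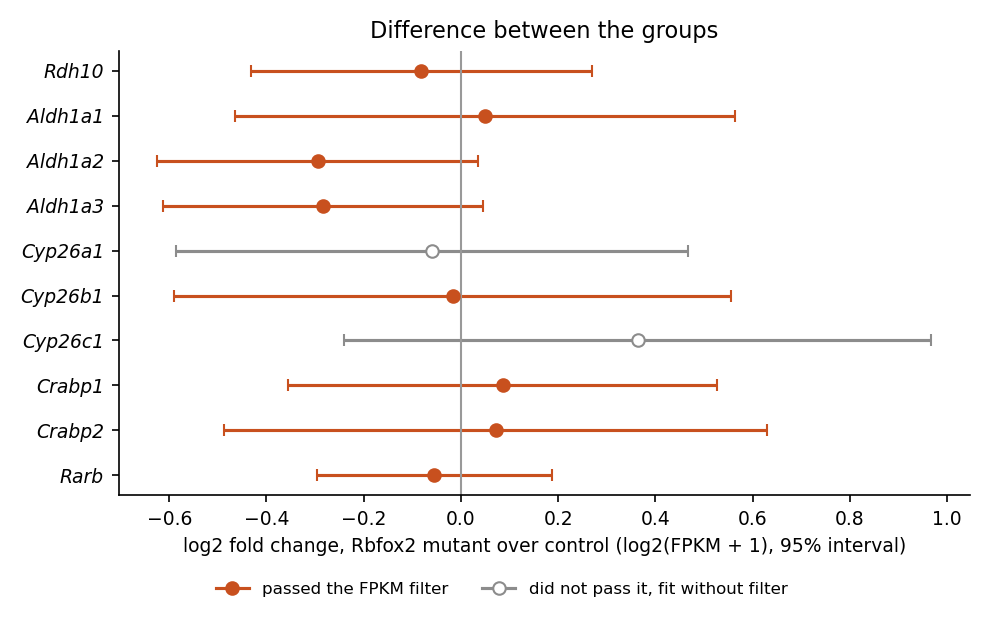
Log2 fold change of the Rbfox2 mutants over controls on log2(FPKM + 1) with 95% intervals from limma. Filled points are the 8 genes that passed the filter, open points are Cyp26a1 and Cyp26c1 from the fit without a filter. Every interval includes 0, and those of Aldh1a2 and Aldh1a3 reach 0.036 and 0.045.

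A further 52 genes of retinoid uptake, metabolism, binding and response were listed by role. Of these 50 were in the table, 32 passed the filter and 0 had an unadjusted p under 0.05, with a median log2 fold change of 0.013. In uptake and storage, 3 of 6 genes passed the filter. *Stra6*, the retinol receptor at the cell surface, had 15.3 ± 2.003 FPKM in controls and 15.4 ± 1.52 in mutants (SD, n = 3). *Ttr*, a carrier of retinol in blood and the leading transcript of the choroid plexus, was at 56.1, 1.04 and 1.91 in controls and 27.4, 67.6 and 22.9 in mutants. Its first control library lay within the mutant range, and the log2 fold change was 2.37 ± 1.20 (SE). Leaving out control replicate 1 gave 3.89, leaving out control replicate 2 gave 1.48, and in replicates 2 and 3 alone it was 4.06, with an unadjusted limma p of 8.9e-05 and an adjusted p of 0.0971. The 7 choroid plexus markers, *Ttr* among them, summed to an FPKM of 18.4 to 89.2 in controls and 47.5 to 96.5 in mutants. *Ttr* itself supplied 56.1 of the 89.2 in control replicate 1 and 67.6 of the 96.5 in mutant replicate 2. The sum is therefore not separate from *Ttr*, and the part of this tissue in the *Ttr* values was not tested.

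Among 14 genes of retinol and retinaldehyde metabolism, 7 passed the filter. The most abundant were *Adh5* (113.7 ± 5.06 and 117.9 ± 10.8 FPKM, SD, n = 3), *Akr1b3* (67.7 ± 6.03 and 69.0 ± 8.11) and *Dhrs4* (28.9 ± 2.02 and 29.3 ± 2.01). *Dhrs3*, named after its values were seen, encodes the enzyme that turns retinaldehyde back to retinol and is itself induced by retinoic acid. Its FPKM was 6.52, 10.1 and 8.33 in controls and 7.43, 7.17 and 6.52 in mutants. The groups overlapped. The resulting log2 fold change was -0.20 ± 0.14 (SE). It was -0.38 in replicates 2 and 3 alone, with an adjusted limma p of 0.409, and -0.061 without control replicate 2. Of the 3 other binding proteins and partners, *Fabp5*, which carries retinoic acid to Ppard, had 251 ± 23.2 and 279 ± 50.9 FPKM and *Fabp7* had 220 ± 51.6 and 259 ± 58.5. *Ppard* itself had 11.3 ± 0.135 and 10.5 ± 1.26.

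The receptors other than *Rarb* had the smallest median absolute log2 fold change of the 6 roles, 0.016. Of 5, 4 passed the filter. *Rarg* was at 51.0 ± 9.70 FPKM in controls and 49.8 ± 2.85 in mutants (SD, n = 3), *Rxrb* at 38.8 ± 2.86 and 39.3 ± 3.73, and *Rxra* at 31.3 ± 2.09 and 30.9 ± 2.26. All 8 co-repressors and co-activators passed the filter, with a median log2 fold change of -0.068. *Hdac3* (78.4 ± 3.81 and 77.9 ± 5.17 FPKM), a histone deacetylase of co-repressor complexes, and the co-repressor *Ncor1* (74.8 ± 20.2 and 75.5 ± 14.9 FPKM) differed by less than their SD.

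**Figure D4:**
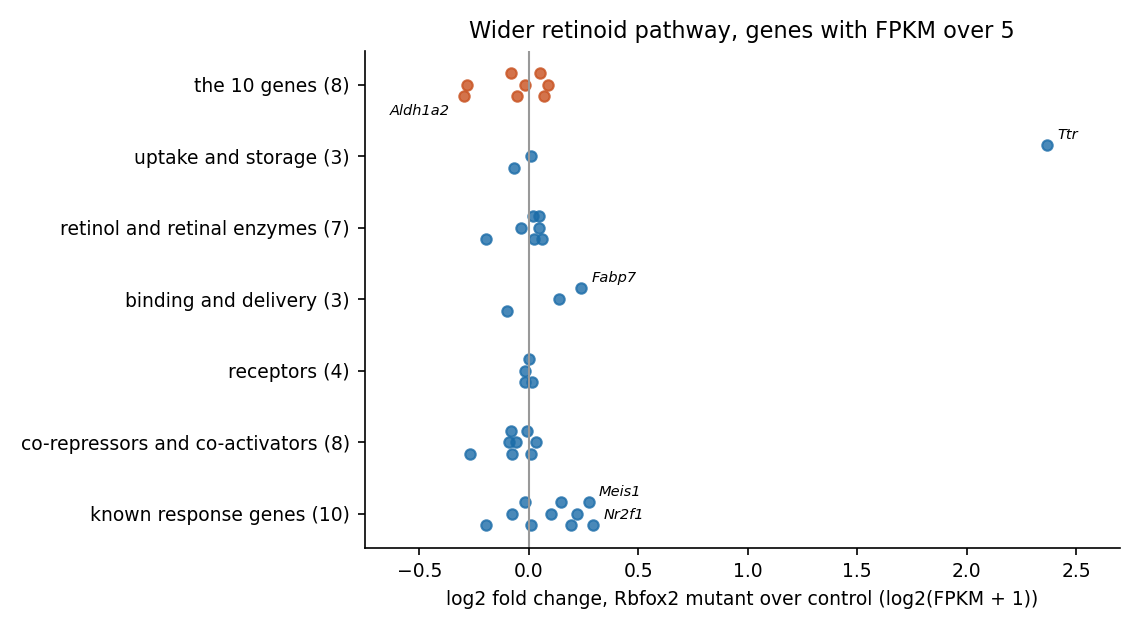
Log2 fold change of the Rbfox2 mutants over controls for each gene that passed the filter, on log2(FPKM + 1), in rows by role with the number of genes in parentheses. Most genes lie close to 0, and Ttr stands alone at 2.37.

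Of 17 known response genes in the table, 10 passed the filter, and their median log2 fold change was 0.12. The transcription factors *Meis2* and *Nr2f1* were the most abundant. *Meis2* had 83.3 ± 20.9 FPKM in controls and 90.4 ± 7.01 in mutants (SD, n = 3), and *Nr2f1* had 62.8 ± 20.9 and 74.6 ± 6.73. *Meis1*, named after its values were seen, was the only one of the 32 genes without overlap of the groups, a share below the 5% of all genes tested. Its FPKM was 17.2, 23.6 and 23.3 in controls and 27.6, 24.5 and 25.4 in mutants. All 3 mutants were above all 3 controls, though mutant replicate 2 exceeded control replicate 2 by only 0.049 on the log2 scale. The fitted log2 fold change was 0.27 ± 0.13 (SE) (limma, unadjusted p = 0.0740, adjusted p = 1.0; exact permutation p = 0.10, the smallest possible). It was 0.13 without control replicate 1 and 0.084 in replicates 2 and 3 alone, with unadjusted limma p-values of 0.169 and 0.244, and 0.35 without control replicate 2, with an unadjusted limma p of 0.0485. Neuronal markers were higher in the same mutants. Their summed FPKM was 683 to 783 in controls and 840 to 929 in mutants. Of these 9 markers, 4 had an unadjusted limma p under 0.05, against 1.66% of all genes tested, and 0 passed an adjusted p of 0.05. The part of neurons in the *Meis1* values was not tested.

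**Figure D5:**
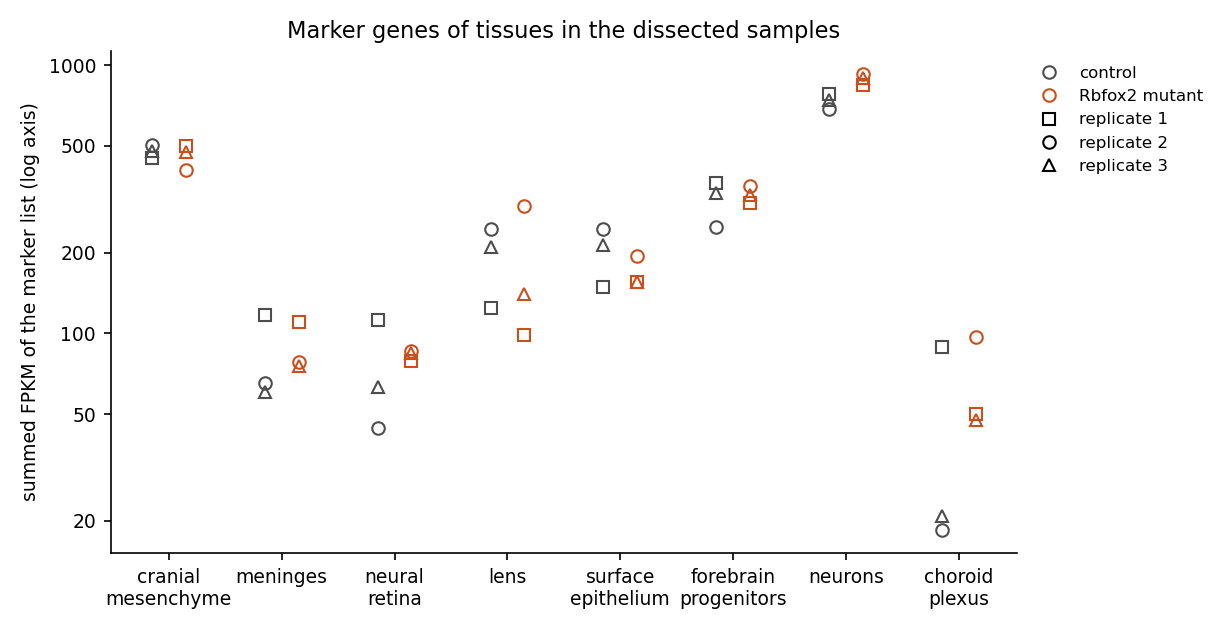
Summed FPKM of the marker lists of the cell types on the horizontal axis in each library, on a log axis, for 3 controls and 3 Rbfox2 mutants. The cranial mesenchyme sum is 407 to 504 in all 6 libraries, and the neuronal sum is higher in each mutant than in each control. The lens and choroid plexus sums vary widely within both groups, and the choroid plexus sum includes Ttr.

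The genes whose log2 values most resembled those of 3 members over the 6 libraries were named by Pearson's r as a description. For *Aldh1a2* they were *Erg* (r = 0.992), *Parm1* (0.990) and *Bace1* (0.988), and 204 of 10061 genes had an r over 0.9. For *Rdh10* they were *Zbed3* (0.991), *Atp11b* (0.986) and *Smad1* (0.986), with 252 genes over 0.9. For *Crabp1* they were *Apc* (0.997), *Gtf3c1* (0.997) and *Kdm3b* (0.996), with 808 genes over 0.9. The 6 points of each correlation are the same 6 libraries.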

How the data were processed

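RNA-Seq was performed on poly(A)+ RNA of craniofacial tissue, 3 control and 3 *Rbfox2* mutant samples grouped by their labels. The authors aligned reads with STAR to GRCm38 and deposited FPKM per gene and sample. The annotation and the step that made the gene table are not given in the sources used here. Depth per value is unknown, so counting error could not be given. Genes with an FPKM over 5 in all samples of either group were tested on log2(FPKM + 1), a pseudocount of 1, with limma 3.58.1 (R 4.3.3, intensity trend, no covariate, Benjamini-Hochberg adjustment), after a test on simulated data. Single genes were compared by exact permutation. P-values measure the spread between these samples, which the authors describe as independent. The 10 genes, the lists and the rule for named genes (the 10, *Rbfox2*, *Pax3*, the 3 most abundant genes of a role, the 3 most alike) were chosen with earlier results of these data known. Some genes that the rule names are not reported here. Coordinates are from GENCODE. Same-numbered samples deviated together across genes (r = 0.64, 0.26 and 0.51), but control replicate 3 with mutant replicate 2 (0.40) and control replicate 2 with mutant replicate 3 (0.23) did so too, so the numbers mainly set the first replicates apart. The pairing comes from these values, since no label ties numbers to litters, and the replicate block is given where it changed a call. Alternatives were other scalings, filters, pseudocount and covariates, replicates 2 and 3 alone, and each sample left out.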

Additional observations from a re-analysis of the deposited data

How the results depend on the processing

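No gene among 10061 passed an adjusted p of 0.05 in limma, where 167 had an unadjusted p under 0.05. The count past the adjusted threshold was 3 with a term for the first replicates, 4 in replicates 2 and 3 only, and 0 to 5 with a sample left out, the 5 being found without *Rbfox2* mutant replicate 3. The unadjusted count was 604 of 10061 genes with the replicate block and 611 of 10061 with the term for the first replicates. With a filter of FPKM over 1 it was 304 of 13415, and without a filter 663 of 23063. In replicates 2 and 3 only it was 1130 of 10258, and with a sample left out it was 78 to 690. It was 78 without control replicate 2, 110 without *Rbfox2* mutant replicate 2, 414 without *Rbfox2* mutant replicate 1 and 690 without control replicate 1. Of the 8 retinoic acid genes tested, 0 were under an unadjusted 0.05. With the replicate block it was 2 (*Aldh1a2*, *Aldh1a3*), with the term for the first replicates 2 (the same genes), in replicates 2 and 3 only 2 (*Aldh1a2*, *Cyp26b1*), and with a sample left out 0 to 2. Those were *Aldh1a2* and *Aldh1a3* without control replicate 1 and *Aldh1a3* without *Rbfox2* mutant replicate 3. *Cyp26c1*, fitted without a filter, also passed an unadjusted 0.05 with the block and with the term. The causes were not tested.

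Of 100 fold changes of the 10 genes under alternatives that kept all samples or dropped the first replicates, 4 changed sign. In replicates 2 and 3 only, *Aldh1a1* was at -0.090 and *Crabp1* at -0.016 on the log2 scale. *Cyp26b1* was at 0.0069 after quantile normalization and *Rarb* at 0.086 with the Y-linked covariate. The replicate block, the term for the first replicates, the other filters and the fit without the trend left every fold change as it was. In this balanced design they can move only the p-value, so they did not test the sign. With a sample left out, 13 of 60 changed sign. The ranges were -0.18 to 0.20 for *Aldh1a1*, -0.11 to 0.23 for *Crabp1*, -0.14 to 0.25 for *Crabp2*, -0.26 to 0.070 for *Cyp26a1*, -0.30 to 0.13 for *Cyp26b1*, -0.13 to 0.025 for *Rarb* and -0.24 to 0.028 for *Rdh10*. The Y-linked covariate also moved *Rdh10* to -0.31, *Aldh1a1* to 0.37, *Cyp26b1* to -0.32 and *Aldh1a3* to -0.042. *Aldh1a2* and *Aldh1a3* stayed below 0 and *Cyp26c1* above 0 under every alternative run, including those that could not change the value. With no read counts, it is unknown how much of the spread of *Cyp26a1* and *Cyp26c1* is counting error.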

Other observations

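The share of *Aldh1a1* in the summed FPKM of the 3 Aldh1a genes was noticed after the values were seen and was not tested. It was 26.5%, 28.7% and 31.9% in control replicates 1, 2 and 3 and 32.1%, 32.3% and 38.8% in the mutants, so each mutant lay above each control. The share of *Aldh1a2* was 48.6% to 54.2% in controls and 42.2% to 51.1% in mutants, and that of *Aldh1a3* was 17.03% to 21.1% and 16.6% to 19.0%. Both ranges overlapped between the groups.

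Of the wider retinoid genes below the filter, *Adh7*, which encodes a retinol-oxidising alcohol dehydrogenase of epithelia, stood at 0.216, 0.275 and 0.339 FPKM in the control libraries and at 0.153, 0.180 and 0.0747 FPKM in the mutant ones. The groups did not overlap at these low levels. Of the 18 wider genes below the filter, *Adh7* was the only gene without overlap. For comparison, 5% of the genes tested, all of which passed the filter, were without overlap. The gene was named after its values were seen.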
